A study of Mus musculus with 28 samples.

Results

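The comparison of E17 with E13 covers the step at which a peripheral nerve of the mouse embryo takes shape, and it rests on 8 of the 28 libraries of the series, 4 of embryonic day (E) 13 and 4 of E17 (E13.5 and E17.5 in the methods). All genes of the raw count table entered it, and the libraries were chosen by their stage label alone. RNA of wild-type C57BL/6J embryos was measured by bulk poly-A sequencing. Each E13 library held various nerves taken distal to the dorsal root ganglia (DRG) and pooled from 2 embryos of the same sex, whereas sciatic nerve is the tissue given on its label. Each E17 library held sciatic nerves pooled from 2 embryos of the same sex. The epineurium and perineurium, the outer sheaths of the nerve, were stripped off the sciatic nerves. Age, nerve and dissection thus change together, and they cannot be told apart in any value given here. In bulk tissue, fewer cells of a type and less RNA per cell cannot be told apart either.

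A peripheral nerve is colonised by Schwann cell (SC) precursors, which migrate along growing axons and depend on axonal neuregulin for survival. They give rise to immature SCs, which make survival factors and a basal lamina of their own, divide, and begin to sort single large axons out of bundles. Myelination is under the control of the transcription factors Sox10, Pou3f1 (Oct6) and Egr2 (Krox20). The neuronal cell bodies lie outside the nerve, in the ganglia and the spinal cord, so that a nerve holds axons but few neuronal nuclei.

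Values are CPM, which are counts scaled to a common library total by TMM, and changes are log2 fold changes of E17 against E13 ± SE with the adjusted p of the edgeR quasi-likelihood test. A gene was called, and is said here to have risen or fallen, when its adjusted p was below 0.05 with a fold change of 2 or more. Total counts ran from 13899895 to 22612205 per library. Of 15981 genes tested, 5439 were called (34.0%), 2152 of them higher (13.5%) and 3287 lower at E17 (20.6%). The 4 and 4 libraries did not overlap for 49.5% of the genes tested. When libraries were scaled by total count only, the median change of all genes went from -0.07 to -0.32 and the higher share of the called genes from 39.6% to 27.8%.

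The E13 libraries differed among themselves more than the E17 libraries did. The median absolute log2 difference of a library from the others of its stage was 0.182 to 0.693 at E13 and 0.103 to 0.120 at E17. E13 replicates 1 and 4 stood farthest off. In both, the difference from the other libraries changed with transcript GC, at slopes of -1.23 and 0.97 log2 per 10 percentage points of GC against -0.05 to 0.17 in the other 6 libraries. It also changed with exon length, at slopes of 0.38 and -0.41 log2 per doubling against -0.09 to 0.12 in the other 6. Without these 2 libraries 6059 genes were called. Haemoglobin genes held 0.618% to 3.66% of the counts at E13 and 0.0405% to 0.112% at E17. Mitochondrial genes held 2.92%, 1.62%, 0.875% and 0.791% in E13 replicates 1 to 4 and 2.18% to 2.65% at E17.

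**Figure D1:**
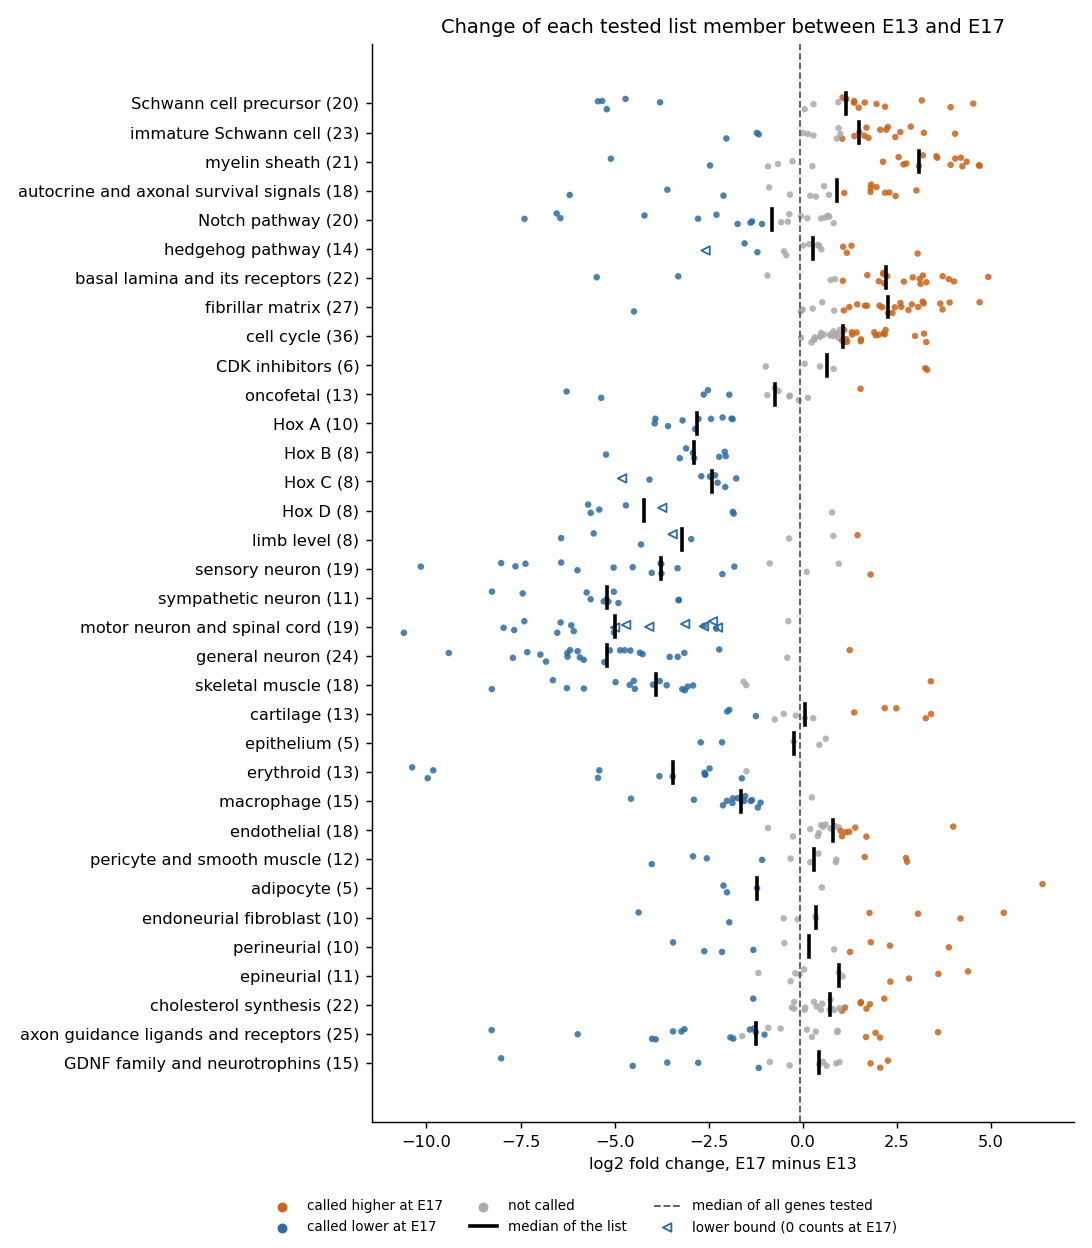
Log2 fold change of E17 against E13 (x axis) for each tested member of 34 gene lists (rows, with the number of tested members in brackets). Orange points were called higher at E17, blue points lower and grey points were not called, open triangles are lower bounds for genes at 0 counts in the 4 E17 libraries, black bars are list medians, and the dashed line is the median of all genes tested. The myelin sheath, basal lamina and fibrillar matrix lists lie mostly to the right, and the Hox and neuron lists to the left.

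SC lineage genes were read first, as a check of the tissue. Of 20 SC precursor genes tested, 12 rose and 5 fell (median log2 1.15, against -0.07 for all genes). Sox10, the transcription factor that marks the SC lineage throughout, was measured at 43.9, 210, 146 and 186 CPM in E13 replicates 1 to 4 and at 376, 394, 437 and 433 CPM at E17. The neuregulin receptor gene Erbb3 stood at 187, 389, 297 and 232 CPM at E13 and at 1044, 1073, 1051 and 1123 CPM at E17. Both were present in every library, were higher in each E17 library than in each E13 library, and rose by 1.49 ± 0.39 (adjusted p = 0.011) and 1.96 ± 0.23 (adjusted p = 8.6e-05).

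The other members of the precursor list did not move together. Ednrb, the endothelin B receptor gene, rose from 619 ± 176 to 2812 ± 93.1 CPM (SD, n = 4). The cadherin gene Cdh19 (ENSMUSG00000047216, chromosome 1, 110888326 to 110977584, minus strand, GRCm38), chosen after its values were seen, is commonly used as a precursor marker. It stood at 24.7, 16.7, 9.08 and 4.17 CPM at E13 and at 308 to 322 CPM at E17, and rose by 4.53 ± 0.49 (adjusted p = 4.6e-05). Its level was lower in each E13 library than in each E17 library, although precursors prevail at the earlier stage.

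The 5 members that fell were Fabp7, Gap43, Tfap2a, Tfap2b and Pax3, named here because they are all that fell. Fabp7 encodes the brain lipid binding protein of precursors and radial glia, and its level was 666, 304, 301 and 209 CPM at E13 and 7.48 to 9.71 CPM at E17 (-5.44 ± 0.39, adjusted p = 3.7e-06). Tfap2a and Tfap2b, which encode AP-2 factors of the neural crest, fell by 4.71 ± 0.37 and 5.21 ± 0.27 on the log2 scale. The neural crest factor gene Pax3 was measured at 7.70 to 11.3 CPM at E13 and 0.341 to 0.834 CPM at E17. Gap43 encodes a growth cone protein and is also expressed by neurons. Its level fell from 415 ± 80.7 to 10.3 ± 2.67 CPM. The Tfap2 genes, Pax3 and Fabp7 are also expressed in the embryonic spinal cord or ganglia, and the level of neuronal transcripts fell with them as given further on. The part of those tissues in these falls was not tested.

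Genes of the immature SC mostly rose, with 14 of 23 tested members higher and 3 lower (median 1.5). The neurotrophin receptor gene Ngfr was measured at 112 to 192 CPM at E13 and 637 to 733 CPM at E17 (2.06 ± 0.20, adjusted p = 2.4e-05). Gpm6b, which encodes a membrane glycoprotein, rose from 153 ± 89.4 to 920 ± 28.5 CPM. Aatk, a kinase gene, rose from 158 ± 86.1 to 868 ± 71.4 CPM. For each of these genes that rose the 4 and 4 libraries were apart. Among the 3 that fell, Cadm2, named after its values were seen, changed by -2.03 ± 0.49 (adjusted p = 0.0066). Gfra3, also named after its values were seen, changed by -1.17 ± 0.32 (adjusted p = 0.012), with libraries that overlapped.

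Genes of the myelin sheath were higher at E17, a stage before SCs myelinate. Of 21 tested genes of the myelin sheath, 15 rose and 2 fell (median 3.08). Mal, which encodes a proteolipid of raft-like membranes (ENSMUSG00000027375, chromosome 2, 127633226 to 127656695, minus strand), was measured at 58.8, 62.1, 44.0 and 56.8 CPM at E13 and at 1416, 1426, 1421 and 1493 CPM at E17. Mbp, the gene of myelin basic protein, stood at 54.8, 81.4, 83.3 and 120 CPM at E13 and at 1305 to 1519 CPM at E17. The rises were 4.70 ± 0.19 (adjusted p = 2.6e-07) and 4.05 ± 0.26 (adjusted p = 1.8e-06). Cadm4, which encodes an adhesion molecule of the internode, rose by 3.19 ± 0.35.

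Chosen after their values were seen, the myelin genes Prx and Cldn19 and the regulators Egr2 and Pou3f1 showed the same direction. Periaxin, the product of Prx, organises the outer surface of the myelinating SC. Prx was measured at 18.1 to 49.3 CPM at E13 and 660 to 783 CPM at E17 (4.35 ± 0.31). Cldn19, a claudin gene of the tight junctions in myelin, was measured at 2.39 to 4.55 CPM at E13 and 84.4 to 96.0 CPM at E17 (4.68 ± 0.23). Egr2, the key regulator of myelin genes, stood at 1.25 to 2.05 CPM at E13 and at 24.8, 36.1, 33.5 and 41.2 CPM at E17 (4.24 ± 0.26, adjusted p = 1.4e-06). Pou3f1 rose by 2.22 ± 0.28, from 9.10 ± 3.25 to 42.2 ± 7.59 CPM.

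The pair that fell were Nfasc and Drp2. Nfasc encodes neurofascin, which has a glial form at the paranode and a neuronal form at the node. It was measured at 83.2, 87.7, 98.1 and 104 CPM at E13 and at 1.85 to 3.12 CPM at E17 (-5.10 ± 0.22, adjusted p = 2.7e-07). Drp2, which encodes a partner of periaxin, fell by 2.46 ± 0.19 on the log2 scale, from 55.2 ± 8.03 to 10.01 ± 1.53 CPM. The partners Prx and Drp2 thus changed in opposite directions.

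**Figure D2:**
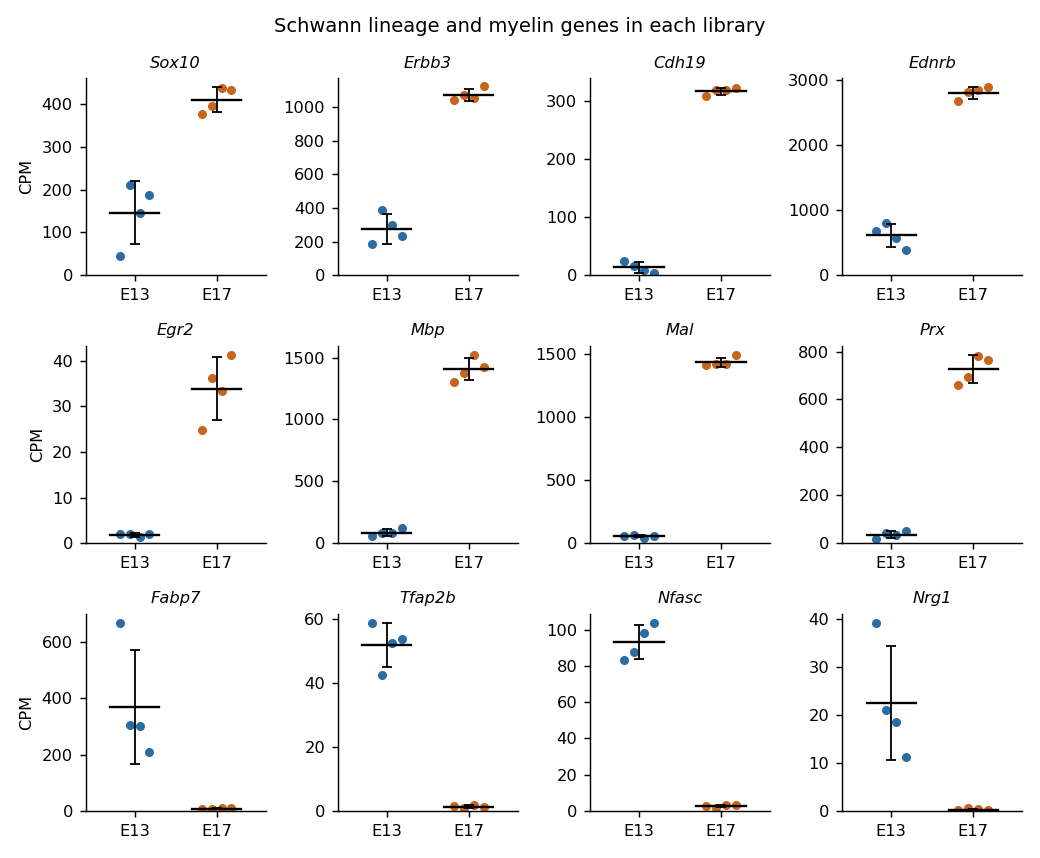
CPM (y axis, from 0) of 12 genes in the 4 E13 libraries (blue) and the 4 E17 libraries (orange), with replicates 1 to 4 from left to right, the mean as a horizontal bar and the SD as error bars. Egr2, Mbp, Mal and Prx lie near the base at E13 and far higher at E17, while Fabp7, Tfap2b, Nfasc and Nrg1 lie near the base at E17.

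To see whether these genes moved more than the SC markers did, the log2 ratio of each gene to the mean of Sox10 and Erbb3 was taken within each library, a measure chosen after the data had been seen. On this scale 1.14% of 15969 genes were higher at E17 with no overlap between the 4 and 4 libraries, and 81.2% were lower. Of the 21 myelin sheath genes, 12 were higher without overlap, 6 lower, and 3 overlapped. The ratio of Mal to the marker mean was -2.23 to -0.62 at E13 and 1.07 to 1.18 at E17, and that of Egr2 was -6.90 to -5.16 at E13 and -4.63 to -4.06 at E17. Of the other 18 precursor genes, 2 were higher without overlap, Cdh19 among them, while 9 were lower and 7 overlapped. Of 23 immature SC genes, 4 were higher, 8 lower, and 11 overlapped. All these ratios share the same pair of reference genes, and Sox10 was lowest in E13 replicate 1, which moves each ratio of that library.

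Survival signals changed in both directions. Of 18 tested genes for survival factors and their receptors, 9 rose and 3 fell (median 0.90). The 3 that fell were all genes of ligands, and they are named for that reason after their values were seen. Nrg1, the gene of neuregulin 1, which axons present to SC precursors, was measured at 39.0, 20.99, 18.5 and 11.1 CPM at E13 and at 0.139, 0.530, 0.341 and 0.158 CPM at E17 (-6.19 ± 0.53, adjusted p = 1.2e-05). Ntf3, the gene of neurotrophin 3, fell by 3.60 ± 0.53 on the log2 scale. Edn3, the gene of endothelin 3, fell by 2.11 ± 0.22. Nrg1 is expressed by neurons, whose general list had a median of -5.20, and the part of neuronal transcripts in its fall was not tested.

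Among other ligand genes, Pdgfa, Igf1 and Lif rose, also named after their values were seen, while Nrg1, Ntf3 and Edn3 fell as given above. Lif, the gene of leukaemia inhibitory factor, rose by 1.81 ± 0.38. Pdgfa was measured at 7.52 to 16.04 CPM at E13 and 83.3 to 94.2 CPM at E17 (3.02 ± 0.25, adjusted p = 8.2e-06), and Igf1 rose from 44.3 ± 23.9 to 218 ± 40.0 CPM (2.30 ± 0.39). Igf2, the growth factor gene with the highest level of this list, was not called (-0.34 ± 0.20, adjusted p = 0.18). The receptor gene Ntrk3 rose from 114 ± 31.1 to 398 ± 13.5 CPM, alongside the receptor genes Erbb3 and Ednrb.

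Notch signalling acts between neighbouring cells and drives the step from SC precursor to immature SC. Of 20 tested genes of the pathway, 10 fell and the other 10 were not called (median -0.83), and 4 of those were higher at E17 with an adjusted p below 0.05 but missed the fold change minimum. The target genes Heyl and Hey2 fell by 2.29 ± 0.27 and 2.78 ± 0.26 on the log2 scale. The target genes Hey1 (0.70 ± 0.15, adjusted p = 0.0033) and Hes1 (0.48 ± 0.17, adjusted p = 0.040), named after their values were seen, had the opposite sign and were among these 4. Heyl was measured at 40.6, 85.7, 85.1 and 89.4 CPM at E13 and at 12.4 to 17.7 CPM at E17. Dner, which encodes a neuronal transmembrane protein that can bind Notch, fell from 101 ± 16.6 to 0.579 ± 0.241 CPM. Dll1, Dll3 and Hes5, which are also genes of neural progenitors, were among the 10 that fell. Beside them, 22 of 24 general neuron genes (median -5.20) and 18 of 19 motor neuron and spinal cord genes (median -7.40, or -4.99 with genes at 0 at E17 set to their bounds) fell, and the part of those tissues in the Notch falls was not tested. The receptor gene Notch1 was not called (0.82 ± 0.30, adjusted p = 0.045) and was called higher without E13 replicate 2 (1.09, adjusted p = 0.013).

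The hedgehog pathway showed one strong rise. Dhh, the desert hedgehog gene, encodes the signal by which SCs direct the formation of the perineurium. It was measured at 19.5, 40.5, 31.8 and 43.0 CPM at E13 and at 268, 277, 273 and 297 CPM at E17 (3.05 ± 0.25, adjusted p = 8.4e-06). Ptch1, the receptor gene and a target of the pathway, rose by 1.17 ± 0.22, a call that was lost with scaling by library size alone. The list members Gli1 (0.40 ± 0.22, adjusted p = 0.17), Gli2 (-0.44 ± 0.20) and Gli3 (0.01 ± 0.31) were not called, and their libraries overlapped. Of 14 tested members 4 rose (28.6%) and 3 fell (21.4%), beside 13.5% and 20.6% of all genes tested. Their median was 0.28, and 1 rose with scaling by library size alone. Shh, the gene of sonic hedgehog, which is made by the floor plate of the spinal cord, was measured at 0.623 to 1.96 CPM at E13. It had no count in the 4 E17 libraries, at least 6.0-fold below its E13 mean.

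Transcripts for the basal lamina changed in level, in opposite directions between laminin chains. Of 22 tested genes of laminins, other basal lamina components and their receptors, 17 rose and 2 fell (median 2.20). Laminins are trimers of an α, a β and a γ chain, and the main laminins of SCs are built from the products of Lama2 or Lama4 with Lamb1 and Lamc1. Lamc1 was measured at 328, 697, 424 and 332 CPM at E13 and at 5446, 5870, 6098 and 6002 CPM at E17 (3.72 ± 0.28, adjusted p = 4.9e-06). Lamb1 rose by 3.28 ± 0.24 and Lama4 by 2.92 ± 0.21. Lama2 (ENSMUSG00000019899, chromosome 10, 26980036 to 27619758, minus strand) stood at 161, 135, 82.4 and 60.7 CPM at E13 and at 3310, 3346, 3356 and 3368 CPM at E17. Its rise of 4.93 ± 0.33 (adjusted p = 2.6e-06) was the largest of the list.

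The laminin chain genes that fell were Lama1 and Lamc3. Lama1 encodes the α1 chain of early embryonic basal laminae, and its level was 41.4 to 62.0 CPM at E13 and 4.57 to 5.90 CPM at E17 (-3.31 ± 0.20, adjusted p = 1.2e-06). Lamc3, a γ chain gene, was measured at 11.3 to 33.2 CPM at E13 and 0.395 to 0.625 CPM at E17 (-5.48 ± 0.40). Lama5 was not called (0.86 ± 0.41, adjusted p = 0.12), and it was called higher without E13 replicate 2, in which its level was 11.5 CPM (1.36, adjusted p = 0.012). Agrn, the agrin gene, had a lower mean at E17 but missed the fold change minimum (-0.94 ± 0.20), and it was called lower without E13 replicate 1 (-1.09).

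Of the receptors, the laminin-binding integrin genes Itga6 and Itgb4 rose by 4.02 ± 0.25 and 3.88 ± 0.37. Itga6 was measured at 89.3 to 188 CPM at E13 and 2229 to 2309 CPM at E17. Hspg2, the perlecan gene, rose from 344 ± 208 to 3140 ± 535 CPM (3.19 ± 0.47). Relative to the mean of Sox10 and Erbb3, 9 of the 22 genes were higher without overlap, among them Lama2, Lamc1, Lamb1, Lama4, Itga6 and Itgb4, 6 were lower and 7 overlapped.

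**Figure D3:**
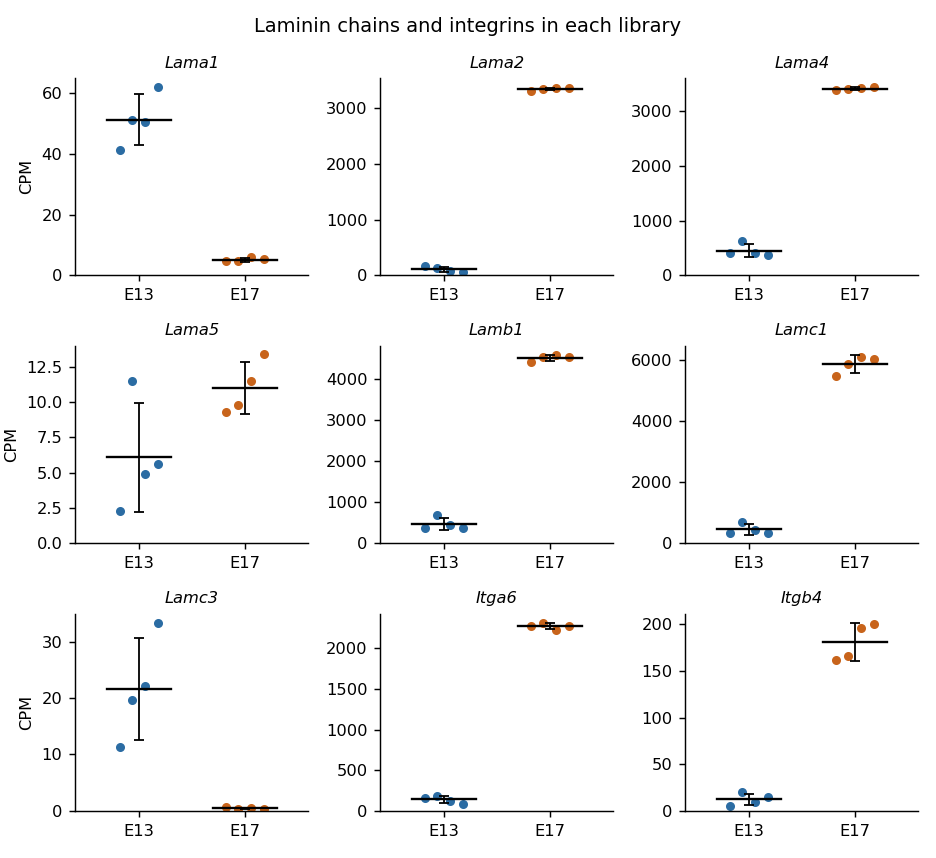
CPM (y axis, from 0) of 7 laminin chain genes and 2 integrin genes in the 4 E13 (blue) and 4 E17 (orange) libraries, replicates 1 to 4 from left to right, with mean and SD. Lama1 and Lamc3 lie higher at E13, Lama5 overlaps, and the other 6 genes lie higher in each E17 library.

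Matrix genes had the largest gains in CPM among the genes that met the conditions for being named by size of change, given further on. This measure is not corrected for transcript length. Of 27 tested genes of the fibrillar matrix, 21 rose and 1 fell (median 2.26). Col3a1, which encodes the type III collagen of the endoneurium, was measured at 1266 to 2073 CPM at E13 and 13490 to 15000 CPM at E17 (3.18 ± 0.21, adjusted p = 1.8e-06). Col1a2, Sparc and Col1a1 rose by 3.06 ± 0.22, 2.59 ± 0.21 and 3.71 ± 0.35, and Postn, the periostin gene, rose by 2.81 ± 0.42. The single fall was that of Fmod, the gene of the tendon proteoglycan fibromodulin, from 43.6 ± 12.5 to 2.003 ± 1.96 CPM.

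Genes of dividing cells were higher at E17. Of 36 cell cycle genes, 19 rose and the other 17 were not called (median 1.07), some of them, such as Bub1b (0.95 ± 0.17, adjusted p = 0.0012), because they missed only the fold change minimum. Bub1b was called without E13 replicate 3 (1.03) and without E17 replicate 1 (1.01). Mki67 (ENSMUSG00000031004, chromosome 7, 135689784 to 135716361, minus strand), the gene of a common proliferation marker, was measured at 199, 168, 113 and 65.4 CPM at E13 and at 1272, 1237, 1257 and 1320 CPM at E17 (3.22 ± 0.33, adjusted p = 3.1e-05). The topoisomerase gene Top2a rose by 2.02 ± 0.22, the spindle gene Tpx2 by 1.54 ± 0.17, and the kinetochore genes Cenpf and Cenpe (the last chosen after its values were seen) by 3.28 ± 0.26 and 2.98 ± 0.30. Genes of DNA replication are also on the list. Mcm4, a subunit of the replicative helicase named after its values were seen, rose by 1.04 ± 0.17. This call was lost with scaling by library size alone, without E13 replicate 4 (0.92) and without E13 replicates 1 and 4. Rrm1, a subunit of ribonucleotide reductase, had a change of 0.74 ± 0.17, and Mcm6, another helicase subunit, had 0.30 ± 0.17 (adjusted p = 0.17), and neither was called. With scaling by library size alone 14 of the 36 rose.

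The promoters of the 3 cell cycle genes with the largest rises are shown because these genes moved together, and that of Mcm6 as a gene that was not called. Each is the stretch of 250 bases before the transcription start in RefSeq (GRCm38.p6), written 5′ to 3′ on the strand of the gene. Capitals mark CCAAT, the site of the factor NF-Y, and TTTGAA, the core of the cell cycle homology region, on either strand (ATTGG and TTCAAA on the other).
Cenpf, chr1:189688087-189688336, minus strand: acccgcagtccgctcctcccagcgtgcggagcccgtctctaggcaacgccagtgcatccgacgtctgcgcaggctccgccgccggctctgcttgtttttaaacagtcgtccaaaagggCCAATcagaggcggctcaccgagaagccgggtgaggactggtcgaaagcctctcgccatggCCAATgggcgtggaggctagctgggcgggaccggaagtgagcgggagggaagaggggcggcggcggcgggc
Mki67, chr7:135716380-135716629, minus strand: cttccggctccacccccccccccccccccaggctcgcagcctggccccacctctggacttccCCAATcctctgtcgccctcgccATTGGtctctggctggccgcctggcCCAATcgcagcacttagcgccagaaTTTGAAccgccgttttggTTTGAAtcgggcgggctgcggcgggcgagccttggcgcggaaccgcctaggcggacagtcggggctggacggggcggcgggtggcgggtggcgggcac
Cenpe, chr3:135212313-135212562, plus strand: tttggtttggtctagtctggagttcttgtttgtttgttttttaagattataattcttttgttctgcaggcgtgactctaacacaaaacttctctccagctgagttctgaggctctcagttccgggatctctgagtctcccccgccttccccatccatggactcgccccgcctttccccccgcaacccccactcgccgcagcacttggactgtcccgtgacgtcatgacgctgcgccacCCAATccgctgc
Mcm6, chr1:128359706-128359955, minus strand: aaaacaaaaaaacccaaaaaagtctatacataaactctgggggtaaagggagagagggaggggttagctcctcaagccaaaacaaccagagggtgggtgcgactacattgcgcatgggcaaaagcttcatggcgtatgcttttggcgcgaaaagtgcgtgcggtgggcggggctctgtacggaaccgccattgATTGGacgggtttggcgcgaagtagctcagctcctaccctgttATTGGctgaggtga

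The stretch of Mki67 held 3 CCAAT and 2 TTTGAA matches, that of Cenpf 2 CCAAT matches, that of Cenpe 1, and that of Mcm6 2. Over the whole RefSeq window of 300 bases, 250 before and 50 after the start, 32 windows were found for 30 of the 36 genes. CCAAT was found in 81.2% of these windows and in 37.4% of all 32851 promoter windows, and TTTGAA in 43.8% and 17.9%. CCAAT was found in 76.9% of the 13 windows of members that rose and in 84.2% of the 19 windows of members that were not called. For TTTGAA these shares were 53.8% and 36.8%. The motifs do not overlap each other in sequence, and a match is no measure of binding.

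Inhibitors of cyclin-dependent kinases (CDK) hold back the cell cycle. Of 6 tested genes 2 rose (median 0.64). Cdkn2c (p18) was measured at 4.44 to 8.68 CPM at E13 and 63.7 to 71.6 CPM at E17 (3.25 ± 0.23, adjusted p = 3.0e-06), and Cdkn2b (p15) rose from 0.346 ± 0.211 to 3.59 ± 0.389 CPM. The other 4 were not called. Cdkn1c (p57) had 282, 337, 358 and 476 CPM at E13 and 172 to 200 CPM at E17, and at -0.98 ± 0.18 it missed the fold change minimum. It was called lower without E13 replicate 1 (-1.09) and without E13 replicate 2 (-1.02). Cdkn1b (p27) had a change of 0.82 ± 0.18 (adjusted p = 0.0041), Cdkn2d (p19) of 0.46 ± 0.25, and Cdkn1a (p21) of 0.05 ± 0.22, with a sign that changed with scaling by library size alone and without single E13 libraries.

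Oncofetal genes, which are active in the embryo and mostly silent in adult tissue, changed unevenly, with 5 of 13 lower, 1 higher and a median of -0.74. With a filter of CPM over 1 the lower count was 3, and with no fold change minimum it was 8. Lin28b, which encodes a block to let-7 maturation, was measured at 20.4, 7.30, 7.57 and 2.78 CPM at E13 and at 0.0695 to 0.397 CPM at E17 (-5.36 ± 0.73). Its relative Lin28a had 0.726 to 2.58 CPM at E13 and counts in 1 E17 library alone, at 0.0662 CPM. Trim71, Sall4 and Hmga1 fell by 2.63 ± 0.46, 2.52 ± 0.70 and 1.95 ± 0.35 on the log2 scale. Igf2bp2, which encodes an mRNA-binding protein and is a let-7 target, rose from 122 ± 29.2 to 353 ± 11.1 CPM (1.53 ± 0.19, adjusted p = 0.00013). Its relatives Igf2bp1 (-0.65 ± 0.18) and Igf2bp3 (-0.11 ± 0.16) were not called. Neither were H19 (-0.74 ± 0.21), Arid3b (-0.36 ± 0.25), Hmga2 (0.14 ± 0.19, with a sign that changed with scaling by library size alone) and Mycn (-0.94 ± 0.22), the last of which was called lower without E13 replicate 1 (-1.02) and without E13 replicate 2 (-1.09).

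Hox genes give cells their position along the body axis and the limb, and their 4 clusters are expressed in neurons, glia and mesenchyme in order along the chromosome. Of 39 listed genes 34 passed the filter on low counts, and 33 of these fell (median -2.81). The highest was Hoxb9, with 310, 249, 366 and 478 CPM at E13 and 65.9 to 84.7 CPM at E17 (-2.22 ± 0.22, adjusted p = 2.7e-05). Hoxb8 (ENSMUSG00000056648, chromosome 11, 96281905 to 96285315, plus strand) fell most among genes with counts at both stages in clusters A to C, from 190 ± 43.9 to 5.05 ± 1.42 CPM (-5.23 ± 0.28). Its neighbours Hoxb7 and Hoxb9 fell by 2.05 ± 0.18 and 2.22 ± 0.22 on the log2 scale.

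In cluster A the falls ran from 1.86 to 3.94 on the log2 scale, among them those of Hoxa2 (-2.86), Hoxa3 (-2.44), Hoxa4 (-3.94), Hoxa5 (-3.92), Hoxa6 (-3.58), Hoxa7 (-3.19), Hoxa9 (-1.89), Hoxa10 (-2.13) and Hoxa11 (-1.86). The falls were largest in the middle of this cluster and smaller from Hoxa9 on. In cluster B they were -3.10 for Hoxb2, -2.92 for Hoxb3, -2.07 for Hoxb4, -3.27 for Hoxb5 and -2.88 for Hoxb6. In cluster C they were -2.06 for Hoxc4, -2.33 for Hoxc5, -2.47 for Hoxc6, -4.07 for Hoxc8, -2.70 for Hoxc9, -2.26 for Hoxc10 and -1.77 for Hoxc11. Hoxc13 was measured at 1.47 to 12.5 CPM at E13 and had no count at E17, at least 27.9-fold below its E13 mean. Several Hox genes overlap in the annotation, so that reads may be split between neighbours such as Hoxc5 and Hoxc6 or Hoxd3 and Hoxd4.

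Cluster D divided. Hoxd10, Hoxd11 and Hoxd3 had changes of -5.70 ± 0.40, -5.41 ± 0.56 and -4.70 ± 0.28, and Hoxd4 and Hoxd9 had -1.84 ± 0.17 and -1.86 ± 0.36, all called. Hoxd12 was measured at 0.729 to 3.29 CPM at E13 with counts in 1 E17 library alone. Hoxd1, at 1.79 to 5.17 CPM at E13, had no count at E17 and was at least 13.3-fold below its E13 mean. Hoxd8 was not called and had the opposite sign, with 30.1, 17.1, 22.2 and 20.6 CPM at E13 and 40.1, 38.5, 34.9 and 41.0 CPM at E17. Its change of 0.78 ± 0.20 (adjusted p = 0.0082) missed the fold change minimum, although its libraries did not overlap.

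**Figure D4:**
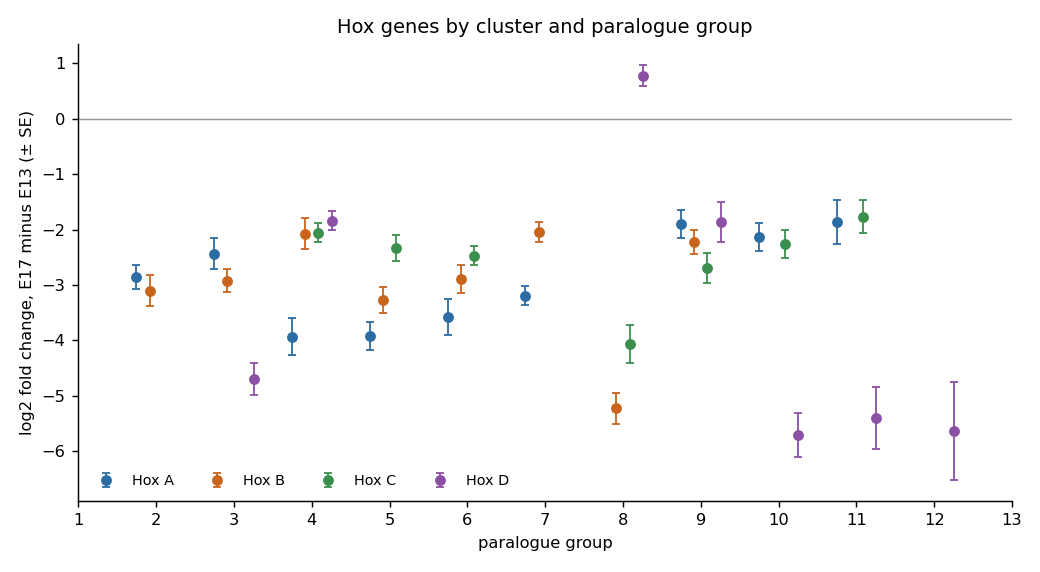
Log2 fold change of E17 against E13 ± SE (y axis) for the Hox genes named in the text that had counts at both stages, by paralogue group (x axis) and cluster (colour). Hoxd8 alone lies above 0, and Hoxb8, Hoxd10, Hoxd11 and Hoxd12 lie below -5.

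Other genes that mark levels of the limb or body axis fell as well, with 5 of 8 tested lower and 1 higher. The Hox cofactor genes Meis1 and Meis2 fell by 2.96 ± 0.18 and 4.30 ± 0.34 on the log2 scale. Meis2 was measured at 167, 94.0, 102 and 55.2 CPM at E13 and at 4.42 to 5.84 CPM at E17. Lmx1b, a gene of dorsal limb and of spinal neurons, fell by 5.56 ± 0.52. En1 had 2.12 to 3.30 CPM at E13 and no count at E17, at least 11.0-fold below its E13 mean. Tbx4, the factor gene of the hindlimb, from which the sciatic nerve comes, was at 0.0445 to 0.530 CPM at E13 and 0.764 to 1.12 CPM at E17 (1.45 ± 0.54, adjusted p = 0.049). This call was lost in 11 of the 20 alternatives that tested it, including the 7 that left out any 1 library except E13 replicate 4, with adjusted p-values of 0.056 to 0.12 in those 7. Tbx15 (0.81 ± 0.46) and Shox2 (-0.36 ± 0.24) were not called, and Isl1 is given with the neurons.

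Neuronal transcripts were abundant at E13 and low at E17. Of 24 general neuron genes 22 fell and 1 rose (median -5.20). Stmn2 (ENSMUSG00000027500, chromosome 3, 8509360 to 8561606, plus strand), a microtubule regulator of growing axons, was measured at 1109, 617, 1142 and 1026 CPM at E13 and at 16.4, 10.8, 20.3 and 16.6 CPM at E17 (-5.92 ± 0.31, adjusted p = 7.3e-07). Tubb3 and Mapt, the genes of neuronal tubulin and tau, fell too, with changes of -6.25 ± 0.44 and -5.82 ± 0.22. Nefl, the light neurofilament gene, fell by 3.54 ± 0.28. Nefh, the heavy neurofilament gene, was the member that rose, from 20.9 ± 3.05 to 49.5 ± 7.09 CPM (1.25 ± 0.18, adjusted p = 0.00029), a call that was lost with scaling by library size alone. Scg3 was not called (-0.41 ± 0.26).

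The summed level of the general neuron list was 5750 to 9720 CPM at E13 and 403 to 486 CPM at E17. By kind of neuron, 15 of 19 sensory genes fell and 1 rose (median -3.78), 11 of 11 sympathetic genes fell (median -5.21), and 18 of 19 motor neuron and spinal cord genes fell (median -7.40, or -4.99 with the 7 genes at 0 in all E17 libraries set to their bounds). Isl1, a factor gene of sensory and motor neurons, was measured at 141, 51.1, 80.7 and 66.2 CPM at E13 and at 0.395 to 1.51 CPM at E17 (-6.42 ± 0.46). Prph and Ret, genes of small sensory and autonomic neurons, fell by 4.01 ± 0.27 and 4.52 ± 0.49. Ntrk3, given above, was the sensory list member that rose, and 3 members rose without E13 replicate 1. Ntrk2 was not called (-0.88 ± 0.14). Lhx1, a factor gene of spinal neurons, had 28.5 to 43.0 CPM at E13 and counts in 1 E17 library alone.

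The E13 libraries differed in the level of sympathetic markers. Dbh, the gene of the enzyme that makes noradrenaline, was measured at 8.33, 31.4, 144 and 284 CPM in E13 replicates 1 to 4 and at 1.81 to 5.66 CPM at E17 (-5.21 ± 1.02, adjusted p = 0.0021). Th, the tyrosine hydroxylase gene, had 24.6, 25.3, 50.9 and 79.6 CPM at E13. The summed sympathetic level was 94.8, 153, 420 and 822 CPM in E13 replicates 1 to 4 and 9.07 to 16.1 CPM at E17. These E13 sums rose in the same order as the GC slopes of the libraries (-1.23, 0.10, 0.17 and 0.97), whose part in the difference was not tested. The summed sensory level was highest in E13 replicate 1, at 1340 CPM against 849 to 916 CPM in the other 3, and 655 to 697 CPM at E17. That E17 sum includes Ntrk3, whose level is given above and which rose by 1.8 on the log2 scale. The sum is thus no measure of the whole list, of which 15 of 19 members fell (median -3.78).

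Markers of tissues next to the nerve were followed as well. Of 18 tested skeletal muscle genes 15 fell and 1 rose (median -3.89), and without E13 replicate 2 the median was -2.14. The summed muscle level was 1760 CPM in E13 replicate 2, 108 to 225 CPM in the other 3, and 25.4 to 67.4 CPM at E17. Actc1, a sarcomeric actin gene, fell by 4.46 ± 0.94 on the log2 scale with all libraries and by 2.81 without E13 replicate 2. The embryonic myosin gene Myh3 fell by 4.49 ± 1.25, or by 2.01 without that library, and lost its call in 3 of the 20 alternatives that gave an adjusted p.

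**Figure D5:**
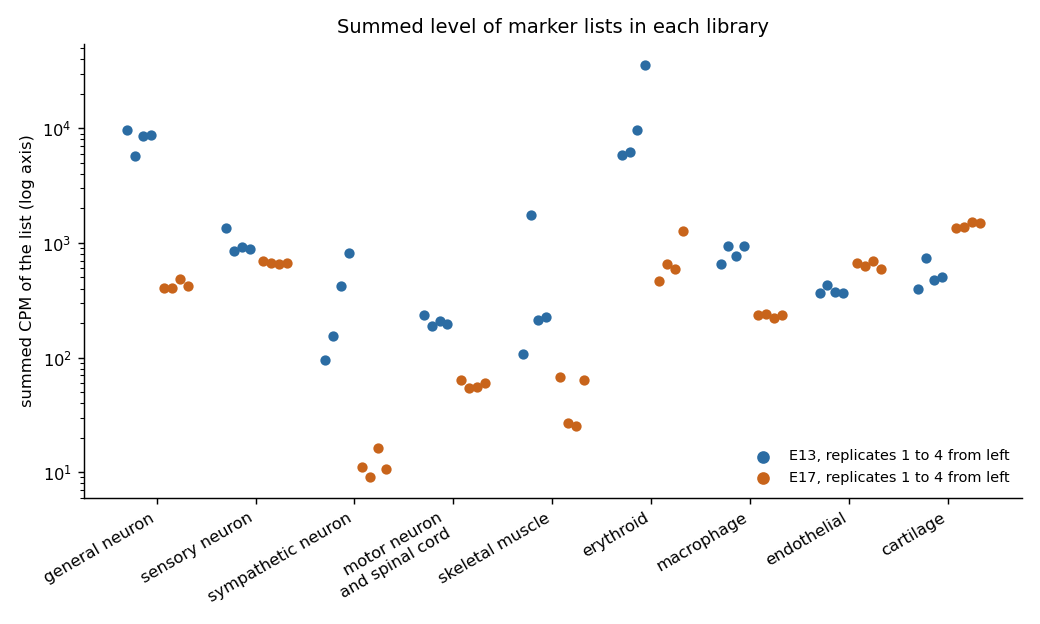
Summed CPM (y axis, log scale) of 9 marker lists (x axis) in the 4 E13 (blue) and 4 E17 (orange) libraries, replicates 1 to 4 from left to right within each stage. The sympathetic sum runs from 94.8 to 822 CPM across the E13 libraries, and the muscle sum of E13 replicate 2 and the erythroid sum of E13 replicate 4 stand above the others.

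Blood was a part of these nerves, which were not perfused. Of 13 tested erythroid genes 12 fell (median -3.46). The embryonic globin gene Hbb-y (ENSMUSG00000052187, chromosome 7, 103851749 to 103853216, minus strand), made by primitive red cells of yolk sac origin, was measured at 4705, 4040, 7269 and 25050 CPM at E13 and at 7.30, 8.21, 5.95 and 9.47 CPM at E17 (-10.38 ± 0.79, adjusted p = 5.5e-06). The embryonic genes Hba-x and Hbb-bh1 fell by 9.82 ± 0.93 and 9.97 ± 1.20 on the log2 scale. The adult globin genes had smaller changes. Hbb-bt had 238, 357, 456 and 2346 CPM at E13 and 86.4 to 244 CPM at E17 (-2.61 ± 0.72, or -1.34 without E13 replicate 4), and Hba-a1 had a change of -2.60 ± 0.69, or -1.63 without that library. Hbb-bs, at 332 to 2739 CPM at E13 and 212 to 636 CPM at E17, was not called (-1.5 ± 0.66, adjusted p = 0.087), and it was called lower in 6 of 21 alternatives, among them the one without E13 replicate 1 (-1.79), and had a change of -0.35 without E13 replicate 4. Globin genes of a cluster are near-identical in parts, so reads may be shared between them.

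The promoters of the embryonic and the adult β-globin genes are shown because the genes of this cluster changed so unequally. The embryonic gene Hbb-bh1 is named only. Each is the stretch of 250 bases before the start in RefSeq (GRCm38.p6), on the strand of the gene, with CCAAT on either strand in capitals.
Hbb-y, chr7:103853208-103853457, minus strand: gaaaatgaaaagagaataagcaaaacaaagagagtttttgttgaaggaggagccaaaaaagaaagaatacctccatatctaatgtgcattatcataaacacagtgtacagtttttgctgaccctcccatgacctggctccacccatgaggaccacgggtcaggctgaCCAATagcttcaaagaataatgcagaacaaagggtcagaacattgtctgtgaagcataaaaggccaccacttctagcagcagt
Hbb-bs, chr7:103827929-103828178, minus strand: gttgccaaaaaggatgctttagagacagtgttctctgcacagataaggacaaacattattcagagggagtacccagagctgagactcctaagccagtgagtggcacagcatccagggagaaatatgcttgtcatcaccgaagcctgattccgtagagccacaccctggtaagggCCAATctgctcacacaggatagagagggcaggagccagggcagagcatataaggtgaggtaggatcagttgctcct
Hbb-bt, chr7:103813924-103814173, minus strand: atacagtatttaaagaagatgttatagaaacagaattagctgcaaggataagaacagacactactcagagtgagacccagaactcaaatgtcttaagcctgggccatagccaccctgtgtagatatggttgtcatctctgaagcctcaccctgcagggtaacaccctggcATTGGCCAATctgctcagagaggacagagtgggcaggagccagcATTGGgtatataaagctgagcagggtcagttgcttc

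CCAAT was found in each of the 3, with 1 match in Hbb-y, 1 in Hbb-bs and 3 in Hbb-bt. This motif was shared by the gene that fell by 10.38 on the log2 scale and the gene that was not called.

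Other resident cells of the nerve were followed by their markers. Of 15 tested macrophage genes 14 fell (median -1.63). Csf1r, the receptor gene of macrophage survival, fell from 176 ± 55.5 to 57.0 ± 2.80 CPM, and Mrc1, the mannose receptor gene, fell from 141 ± 63.8 to 19.02 ± 2.38 CPM. Of 18 endothelial genes 7 rose (median 0.80), while 3 rose with scaling by library size alone and 4 without E13 replicate 3. Pecam1 was measured at 38.0 to 42.9 CPM at E13 and 87.5 to 117 CPM at E17 (1.39 ± 0.15, adjusted p = 4.5e-05), while Cdh5 was not called (0.40 ± 0.16). In the endoneurial fibroblast list 4 of 10 genes rose and 2 fell, beside 13.5% and 20.6% of all genes tested. Abca8a, a transporter gene, rose, with 41.2, 37.9, 14.8 and 11.9 CPM at E13 and 1033 to 1125 CPM at E17 (5.34 ± 0.45), and Cd34 rose by 1.77 ± 0.16. The 2 that fell, named after their values were seen, were Col2a1, a collagen gene that also marks cartilage, from 207 ± 94.8 to 53.3 ± 5.88 CPM (-1.95 ± 0.35, adjusted p = 0.0012), and the Wnt inhibitor gene Wif1 (-4.36 ± 0.50). The median of this list was 0.34. In the perineurial list 4 of 10 rose and 4 fell, with Sfrp5 higher (1.81 ± 0.33) and Moxd1 lower (-2.62 ± 0.27). With E13 replicate 2, E17 replicate 1 or E17 replicate 2 left out, 2 members of the perineurial list were called lower. The perineurium was stripped off at E17 alone.

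Axon guidance genes, which encode ligands and receptors that steer growing axons, included 4 rises and 13 falls among 25 tested (median -1.25). The semaphorin receptor gene Nrp2 rose from 234 ± 16.7 to 749 ± 11.8 CPM and the ephrin receptor gene Epha5 from 27.98 ± 16.03 to 338 ± 5.13 CPM. Plxna2, a semaphorin receptor gene, fell from 144 ± 41.5 to 15.4 ± 1.604 CPM. Of 22 genes of cholesterol synthesis, which myelin growth requires, 7 rose and 1 fell (median 0.73). Msmo1, a sterol oxidase gene, rose by 1.78 ± 0.21, and Acat2, which encodes an enzyme that makes acetoacetyl-CoA, fell by 1.317 ± 0.22.

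Over all genes, 2784 met the conditions for being named by size of change, among them more than 3 counts in a library of the lower stage, 1266 higher and 1518 lower at E17. The largest rise was that of Sbspon (ENSMUSG00000032719, chromosome 1, 15853862 to 15892722, minus strand), a gene for a secreted protein with somatomedin B and thrombospondin domains. It was measured at 0.683, 0.550, 1.51 and 0.530 CPM at E13 and at 225, 231, 238 and 230 CPM at E17 (8.10 ± 0.36, adjusted p = 3.7e-07). The next rises were those of Fabp4 (6.37 ± 0.41), a fatty acid binding protein gene of adipocytes, endothelium and macrophages, Art3 (5.83 ± 0.20), which encodes a member of the ADP-ribosyltransferase family, and Gjc3 (5.70 ± 0.30), a connexin gene of glia. Gjc3 stood at 6.69 to 14.2 CPM at E13 and at 499 to 550 CPM at E17. C1qtnf9, Btbd16, Abca8a, Kera, Krt80 and Ppp1r1b completed the 10, with rises of 5.27 to 5.61. The complete adipocyte list did not follow Fabp4, with 5 of 12 genes passing the filter and 3 of these lower.

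Among genes with more than 3 counts in at least 1 E17 library, which leaves out Lhx1, the largest falls were those of the 3 embryonic globin genes and of Cntn2 (-9.56 ± 0.32), which encodes an adhesion molecule of growing axons. Cntn2 was measured at 334, 215, 202 and 285 CPM at E13 and at 0.199 to 0.417 CPM at E17. They were followed by Hsd3b6 (-8.69 ± 1.03), Ptgds (-8.63 ± 0.68), Myt1l (-8.43 ± 0.65), Svop (-8.28 ± 0.66), Slit1 (-8.27 ± 0.46) and Pou3f3 (-8.23 ± 0.67). Ptgds, Pou3f3 and Hbb-bh1 had few E17 counts. Without 1 E17 library the change was -12.0 for Ptgds (replicate 1), -11.9 for Pou3f3 (replicate 2) and -12.3 for Hbb-bh1 (replicate 4), so that the place of these 3 in the order is uncertain. Myt1l and Pou3f3 encode neuronal transcription factors, Svop a synaptic vesicle protein and Slit1 an axon guidance ligand. Hsd3b6 is a steroid dehydrogenase gene with close paralogues, so reads may be shared. It had 25.8, 19.3, 49.5 and 185 CPM in E13 replicates 1 to 4.

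By loss in CPM among the genes that met these conditions, Hbb-y was followed by the tubulin gene Tuba1a, by Igfbp5, which encodes a binding protein of insulin-like growth factors, by the actin-binding protein gene Tmsb4x, by the growth cone gene Dpysl3 and by the tubulin gene Tubb2b. Igfbp5 had 2470, 5345, 3747 and 2609 CPM at E13 and 804 to 1032 CPM at E17 (-2.0 ± 0.27). Dpysl3 fell from 1330 ± 234 to 136 ± 7.24 CPM, and Tuba1a, Tubb2b and Tmsb4x fell by 1.54 ± 0.28, 1.93 ± 0.30 and 1.68 ± 0.20 on the log2 scale.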

How the data were processed

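RNA of 8 libraries, 4 of E13 and 4 of E17, was analysed as raw counts per gene, which the authors deposited after trimming, alignment with STAR 2.6.1c and counting with featureCounts from stranded poly-A libraries. The genome build was GRCm38.p5 according to the submitters' processing notes, and the study's methods give another build name. Settings for strand and multimapping were not given in the sources used here, so reads of overlapping genes and close paralogues may be shared. Of 41605 gene identifiers 99.79% matched a GRCm38 annotation. The labels do not give the sex of each pool, and p-values measure the spread between these pools.

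Genes passing filterByExpr were scaled by TMM and tested with the edgeR 4.0.16 quasi-likelihood test (R 4.3.3, robust), with Benjamini-Hochberg adjustment over 15981 genes. SE was derived from the F statistic. Genes with no count at E17 were given a lower bound, the E13 mean over the CPM of 3 counts in the shallowest E17 library. The spread of the E13 libraries does not enter this bound. CPM were not corrected for length. On simulated data 181 of 200 changed genes were recovered, with 6 false calls among 15785 genes. The simulated libraries had the same spread at both stages and no GC trend, and all planted changes were above the fold change minimum. Because the E13 libraries differed more and had GC trends, these counts give no error rate for the measured contrast. Alternatives used limma 3.58.1 and DESeq2 1.42.0.

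Genes named by size were called, at 10 CPM or more in the higher stage, with more than 3 counts in a library of the lower stage, without overlap, and called without each library in turn, and list members were named by mean CPM. The members and lists were chosen with earlier results of these data known, and genes outside these rules were named after their values were seen. Values of some single genes are not reported here.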

Additional observations from a re-analysis of the deposited data

Results flagged for a closer look

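In 27 of 368 groups of 4 libraries examined for the genes and measures of the report, 1 library lay far from the other 3 by Dixon's test. Chance flags about 1 in 20 such groups.

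In E13 replicate 4 the haemoglobin share was 3.66% of counts against 0.618% to 1.06% in the other 3, with Hbb-y at 25050 CPM, Hbb-bs at 2739 CPM and Hbb-bt at 2346 CPM. Hoxb8 was at 255 CPM there. In E13 replicate 2 the muscle genes Actc1 and Myh3 stood at 343 and 413 CPM, against 22.1 to 45.0 and 16.8 to 29.7 CPM in the other 3, and Art3 and Ppp1r1b stood at 8.70 and 1.20 CPM. In E13 replicate 1, Heyl was low at 40.6 CPM, and Pax3, Msmo1 and Wif1 were high at 11.3, 77.9 and 5.17 CPM. In E13 replicate 3, Egr2 was low at 1.25 CPM and Sbspon high at 1.51 CPM.

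At E17, replicate 4 held Mal at 1493 CPM, Hmga1 at 6.24 CPM, Hbb-bh1 at 0.552 CPM, Hoxd12 at 0.158 CPM and Lhx1 at 0.0789 CPM. Replicate 1 held Hoxc5 at 12.2 CPM, Mrc1 at 22.6 CPM and Ptgds at 0.278 CPM. Replicate 2 held Lin28a at 0.0662 CPM and Pou3f3 at 0.331 CPM, and replicate 3 held Sparc at 8865 CPM and Tuba1a at 1587 CPM. For Hoxd12, Lhx1, Lin28a, Pou3f3 and Ptgds the other 3 E17 libraries had no count. The part of muscle and blood in the other differences was not tested.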

How the results depend on the processing

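Over 21 other settings the number of genes called stayed within 1.5 times that of the report. It was 5525 with scaling by library size alone, 5585 with the DESeq2 Wald test, 6352 with limma-voom, and 5145 to 6455 when 1 library was left out. Without the filter on low counts 6641 of 26059 genes were called. Of the gene values named, 6 changed sign, all of genes that were not called. The log2 fold change of Cdkn1a was -0.21 with scaling by library size alone, -0.0893 to 0.232 with 1 library left out (below 0 without E13 replicate 1 or E13 replicate 3) and -0.0863 without E13 replicates 1 and 4. The log2 fold change of Hmga2 was -0.125 and -0.0318 with the first and last of these. Of list counts, 60 of 1436 moved by over 1.5 times. The replicate numbers did not pair the samples, since the correlations of same-numbered deviations were 0.132, 0.0642, 0.19 and 0.0452 and not every library correlated best with its own number. With the replicate block 5679 genes were called, 2486 higher and 3193 lower. Genes under the filter on low counts were not tested in the report, and replicates differed more at E13 than at E17.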

Other observations

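Of 13 tested cartilage genes 5 rose and 3 fell (median 0.05), with a summed level of 400 to 744 CPM at E13 and 1340 to 1530 CPM at E17. The collagen gene Col11a1, the largest part of the E17 sum, rose from 89.2 ± 42.6 to 859 ± 45.0 CPM. The 3 that fell were Acan (-2.01 ± 0.36), Col2a1 (-1.95 ± 0.35) and Cnmd (-1.25 ± 0.22). Of 11 epineurial genes 4 rose (median 0.96), and 2 fell without E17 replicate 4, with sums of 118 to 338 CPM at E13 and 350 to 432 CPM at E17. Of 12 pericyte and smooth muscle genes 3 rose and 4 fell, and their sums overlapped between the stages. Of 16 epithelium genes 5 passed the filter and 2 of these fell, or 1 without E13 replicate 2, E17 replicate 1 or E17 replicate 2. Of 15 genes of the GDNF family and the neurotrophins with their receptors, 3 rose and 5 fell, or 5 rose without E13 replicate 2, while their sum was 1010 to 1220 CPM at E13 and 1790 to 1980 CPM at E17.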
